A study of Talinum fruticosum with 36 samples.

Results

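Ribosomal proteins are the protein part of the ribosome, the particle that reads messenger RNA and makes protein. The loci described here are those whose annotation in the deposited table of read counts contains the words ribosomal protein, and which reached at least 1000 counts over 30 leaf libraries. There were 248 of them among 21869 loci, out of 275 loci with such an annotation. Of the others, 6 had no count and 21 had fewer than 1000. The loci nearest to the threshold were AT1G29965 with 854 and AT1G29970 with 958 counts below it, both of the L18ae type, and AT5G63070 with 1120 and AT5G19025 with 1171 counts above it.

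The libraries came from Talinum triangulare (Talinum fruticosum in the species label), a herb that moves from C3 photosynthesis to crassulacean acid metabolism (CAM), with carbon dioxide taken up at night, when water is short. After 28 days with ample water, watering stopped. Mature leaves were harvested at the start (day 0), after 4, 9 and 12 days of drought, and once plants dry for 12 days had been given water again for 2 days. Each of these 5 stages has a midday and a midnight harvest, both 6 h after the lights changed, which makes 10 groups of 3 biological replicates. The labels give the photosynthetic mode as CAM on days 9 and 12 and as C3 on day 0, on day 4 and after re-watering. No genotype or transgene is named, and no plants kept watered until the later days are among these libraries, so drought, plant age and sampling day cannot be told apart.

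A plant leaf cell holds 3 kinds of ribosome. Cytosolic ribosomes have a 60S and a 40S subunit and translate the messages of the nucleus. Plastid and mitochondrial ribosomes are of the bacterial type and translate the small genomes of those organelles, although most of their proteins are nuclear genes whose products are imported. Making cytosolic ribosomes is among the largest costs of a growing cell, and in Arabidopsis the messages of cytosolic ribosomal proteins are known as a large group that is controlled together by sugar, light and the TOR kinase.

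Annotation words, with the sugar beet protein name that the authors paired with the same Arabidopsis locus, placed 100 members in the cytosolic ribosome (57 of the large subunit, 42 of the small subunit and 1 not told), 29 in the plastid ribosome (17 large, 12 small) and 13 in the mitochondrial ribosome (7 large, 5 small and 1 not told). Another 23 members have a bacterial-type name that does not tell plastid from mitochondrion, and 66 carry a family name that does not tell the compartment. The other 17 have an annotation or beet name of another kind of protein or of an uncharacterized one. The compartment of 21 plastid, 66 cytosolic and 5 mitochondrial members came from the beet name, which is a similarity and not a localisation measured in Talinum. Another 24 cytosolic members were placed only by a letter or number of the eukaryotic naming in their annotation. No genome of Talinum was used here, so positions and sequences of the loci are not given.

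The total count per library ran from 4266915 to 8756533, and the members took between 2.55% and 5.33% of it. All 6 mesophyll markers of a leaf (RBCS1A, RBCS3B, LHCB3, LHCA4, LHCA3 and RCA) were present in each group, at a summed level of 54972 CPM or more. Levels are in CPM, reads of a locus relative to the library size, scaled by the trimmed mean of M values (TMM), which takes most loci as not different between libraries. A locus was called changed at a Benjamini-Hochberg adjusted p under 0.05 in edgeR's quasi-likelihood test on all 14052 loci tested, and each adjusted p below is from that test. Members passed the low-count filter in 248 of 248 cases. Reads were assigned to the best matching Arabidopsis protein, so close paralogues of a ribosomal protein can share or exchange reads and single loci of a family are uncertain. Levels are not corrected for length, so they are compared between groups and not between proteins. Many single loci below were chosen for a large change and groups that did not overlap in that contrast. For those loci the lack of overlap was set by the choice and adds no support.

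The day-night difference of the cytosolic ribosomal proteins turned over with drought. On day 0 the cytosolic messages were higher at midday than at midnight relative to the other loci, and on days 9 and 12 their summed level was higher at midnight. On those days 18 and 27 of the 100 were called higher at midnight, beside 24% and 27.2% of all loci, and each count fell to 8 with 1 library left out. Summed over the 100 cytosolic members, the midday libraries of day 0 held 37315, 19863 and 25997 CPM and the midnight libraries held 12426, 18210 and 16423 CPM. The 3 midday sums of day 0 all lay above the 3 midnight sums, but on library totals they overlapped, at 17149 to 26789 CPM at midday and 16571 to 21945 CPM at midnight. On day 9 the sums were 20978, 18473 and 16808 CPM at midday and 24072, 22188 and 23419 CPM at midnight, and on day 12 they were 18889, 15976 and 20171 CPM at midday and 24600, 22968 and 22860 CPM at midnight. On both CAM days the 3 midnight sums lay above the 3 midday sums, with no overlap.

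How far the midnight response differed from that at midday was tested as an interaction, which was called and positive for 86 of the 100 cytosolic members on day 9 and for 90 on day 12, and negative for 0 and 0. Of all loci tested, 10% had a positive and 14.2% a negative interaction on day 9, and 15.2% and 18.6% on day 12. The median interaction of the cytosolic members was 1.14 on the log2 scale on day 9, with the middle 50% between 0.95 to 1.27, and 1.20 on day 12, against -0.06 and -0.03 over all loci tested. Both subunits took part, with 49 of 57 large and 36 of 42 small subunit members called on day 9 and 50 and 39 on day 12. Leaving out any 1 library gave between 68 and 95 called members on day 9 and between 73 and 95 on day 12. Scaling by library totals alone gave 69 and 75, and the share of all loci on that scale is not given here. The interactions of days 9 and 12 share the 6 day 0 libraries and are not independent of each other.

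**Figure D1:**
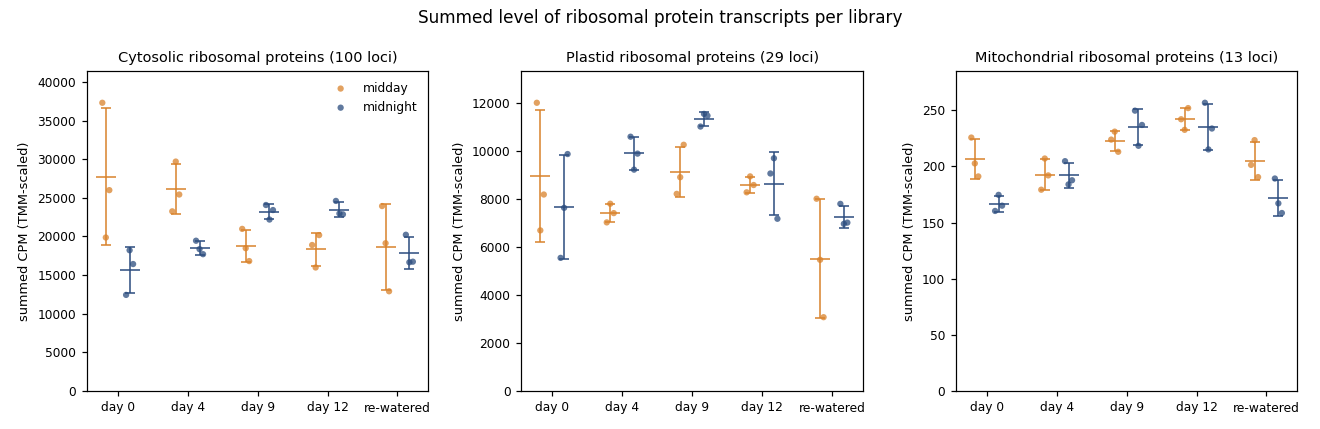
Summed level (CPM, linear axis from 0) of the cytosolic, plastid and mitochondrial members in each of the 30 libraries, by stage and time of day, with 1 point per library and the mean ± SD of each group. The cytosolic midday points lie above the midnight points on days 0 and 4, where they overlap on library totals, and below them on days 9 and 12, while after re-watering they overlap.

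60S ribosomal protein L14-1 (AT2G20450), a protein of the large subunit, is given here library by library. Its level on day 0 was 329, 161 and 195 CPM at midday and 75.1, 164 and 131 CPM at midnight in replicates 1, 2 and 3. Day 9 gave 132, 122 and 112 CPM at midday and 218, 219 and 275 CPM at midnight. Day 12 gave 119.6, 89.5 and 110.1 CPM at midday and 218, 199 and 239 CPM at midnight. The day 0 values overlapped, with midnight replicate 2 above midday replicate 2, whereas the midnight values lay well above the midday values on both later days. Its interaction was 1.85 ± 0.36 (SE, adjusted p = 0.000477) on day 9 and 1.93 ± 0.36 (SE, adjusted p = 0.000155) on day 12 on the log2 scale. Over 21 alternative settings the day 9 interaction lay between 1.45 and 2.11, with adjusted p between 1.06e-05 and 0.00665.

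40S ribosomal protein S7 (AT3G02560), a protein of the small subunit, had 446, 211 and 307 CPM at midday and 145, 221 and 175 CPM at midnight on day 0. By day 9 it stood at 253, 208 and 186 CPM at midday and 414, 373 and 389.6 CPM at midnight. Midnight values on day 9 lay above the midday values of the same day and, at midnight, above those of day 0. The interaction was 1.70 ± 0.33 (SE, adjusted p = 0.000537) on day 9. A paralogue, S7 at AT1G48830, had an interaction of 1.84 ± 0.32 (SE, adjusted p = 5.89e-05) on day 12.

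**Figure D2:**
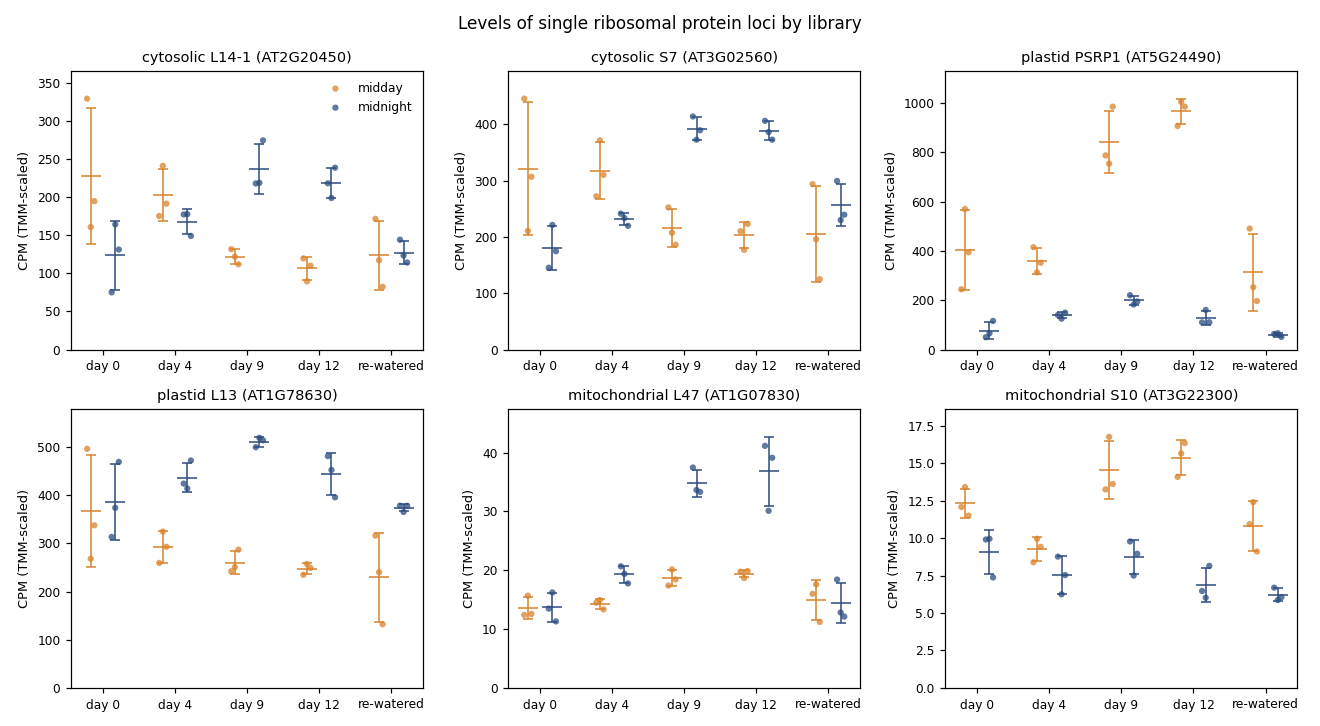
Level (CPM, linear axis from 0) of 6 members in each of the 30 libraries, by stage and time of day, with 1 point per library and the mean ± SD of each group. L14-1 and S7 of the cytosolic ribosome rise at midnight on days 9 and 12, PSRP1 of the plastid is highest at midday on days 9 and 12, and mitochondrial L47 is above its other groups at midnight on days 9 and 12.

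Compared with day 0 at midday, the cytosolic members were lower after 9 and 12 days of drought, and none of the 100 was called higher. On day 9, 67 were called lower, against 21% of all loci tested lower and 23.4% higher, and the median log2 change was -0.58. On day 12, 75 were called lower, against 25.7% of all loci lower and 29.3% higher, and the median was -0.66. The 3 drought libraries all lay below the 3 day 0 libraries for 40 of the 67 members called on day 9 and for 48 of the 75 called on day 12. That is 59.7% and 64% of the called members, below the 91.5% and 92.7% of all loci called lower in the same contrasts. On day 9 the calls were spread over 36 large and 30 small subunit members, and on day 12 over 40 and 34.

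L17-2 of the large subunit (AT1G67430) had 539.9, 280.5 and 397 CPM on day 0, 238, 202 and 173 CPM on day 9 and 187, 166 and 212 CPM on day 12 at midday. Day 0 lay above both drought days in each library. It fell by 0.99 ± 0.22 (SE, adjusted p = 0.000574) on the log2 scale on day 9 and by 1.11 ± 0.22 (SE, adjusted p = 0.000116) on day 12. L39 (AT2G25210), a very small protein of the large subunit, fell by 0.98 ± 0.22 (SE, adjusted p = 0.000693) on day 9. L10 (AT1G26910), a large subunit protein that in yeast joins the ribosome late, fell by 1.14 ± 0.21 (SE, adjusted p = 5.7e-05) on day 12. L14-1, shown above, fell by 1.10 ± 0.25 (SE, adjusted p = 0.000657) on day 12.

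How many members were called lower at midday depended on the day 0 midday replicate 1, which had the highest cytosolic sum of all 30 libraries. Without it the count was 8 on day 9 and 22 on day 12, with fewer libraries in the fit. The count on day 9 was also 31 without day 9 midday replicate 3 and 43 without day 9 midday replicate 2, and on day 12 it was 46 without day 12 midday replicate 2. With day 4 as the reference, a setting added after the data were seen, 46 members were lower on day 9 and 62 on day 12, against 18.9% and 23.8% of all loci tested, with medians of -0.51 and -0.58. These counts were 10, 24, 13 and 11 for day 9 without day 4 midday replicates 2 and 3 and day 9 midday replicates 2 and 3, and 30 for day 12 without day 4 midday replicate 2 or day 12 midday replicate 2. Scaling by library totals moved the median of all loci by 0.26 on day 9 and 0.32 on day 12. On that scale 30 and 46 cytosolic members were lower than on day 0 and 2 and 0 higher, with medians of -0.34 and -0.39. The share of all loci called on that scale is not given here.

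Day 4 itself had 0 cytosolic members called in either direction against day 0 at midday, in a contrast in which 0% of all loci were called higher and 0% lower, and 1 cytosolic member had an unadjusted p under 0.05. DESeq2 also called 0 of them.

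Markers of dividing cells moved with these sums at midday. The 10 markers with a row in the table are replication and cell division genes together with AN3 and GRF5. Each was above 0 in every group, but AN3 was very low, at a mean of 0.33 CPM at midnight on day 4. The sum of the 10 at midday was 221 to 470 CPM on day 0 and 296 to 352 on day 4. It was 29.2 to 47.5 CPM on day 9 and 20.6 to 29.9 on day 12. Of the 10, 7 fell on day 9 and 8 on day 12 at midday, beside 21% and 25.7% of all loci tested. The day 0 midday replicate 1 had the highest level both of these markers and of the cytosolic ribosomal proteins. The mesophyll sum at midday was 117558 to 203657 CPM on day 0 and 66440 to 70347 on day 12. In whole leaves fewer cells of a type and less RNA per cell cannot be told apart, and the part of these markers in the result was not tested.

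At midnight the direction was the opposite. Against day 0 at midnight, 63 cytosolic members were called higher on day 9 and 63 on day 12, and none was called lower. Over all loci tested, 23.2% were higher and 25.4% lower on day 9, and 27.8% and 29.8% on day 12. The median change of the cytosolic members was 0.59 on day 9 and 0.57 on day 12 on the log2 scale. Groups did not overlap for 62 of the 63 called on day 9 and for 61 of the 63 called on day 12, or 98.4% and 96.8%, beside 93.6% and 91.5% of all loci called higher. By subunit, 34 large and 28 small members rose on day 9, and 32 and 30 on day 12.

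Ribosomal protein S21e (AT5G27700), a small subunit protein without a bacterial counterpart, had 71.6, 87.1 and 95.4 CPM at midnight on day 0, 104, 98.8 and 98.3 CPM on day 4, 195, 177 and 166 CPM on day 9 and 208, 173 and 182 CPM on day 12. Days 9 and 12 lay above days 0 and 4 in each library. Its rise over day 0 was 1.08 ± 0.22 (SE, adjusted p = 0.000262) on day 9 and 1.15 ± 0.22 (SE, adjusted p = 9.92e-05) on day 12. SAe (AT1G72370), known from Arabidopsis as the p40 protein of the small subunit, went from 132, 166 and 181 CPM to 347, 331 and 337 CPM on day 9 and 368, 340.2 and 322 CPM on day 12 at midnight. Again day 0 lay below both later days in each library. SAe rose by 1.09 ± 0.22 (SE, adjusted p = 0.00026) on day 9 and by 1.11 ± 0.22 (SE, adjusted p = 0.000147) on day 12, and S7 (AT3G02560) by 1.12 ± 0.24 (SE, adjusted p = 0.000324) and 1.11 ± 0.24 (SE, adjusted p = 0.000264).

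The day 0 midnight replicate 1 had the lowest cytosolic sum of all 30 libraries. Without it 20 cytosolic members were called higher on day 9 and 26 on day 12 at midnight. Scaled by library totals, 50 and 58 were higher than on day 0, with no share of all loci given for that scale. Against day 4, 20 members were higher on day 9 and 26 on day 12, against 21.6% and 26.3% of all loci tested, which is near the background, with medians of 0.32 and 0.32, and the counts fell to 8 and 16 without day 4 midnight replicate 3. No cytosolic member was called on day 4 against day 0 at midnight (median 0.25, 0 higher and 0 lower by edgeR, with 0.0498% of all loci higher and 0.135% lower, and 33 of the 248 members at an unadjusted p under 0.05). Guard cell markers, 6 of 6 above 0 in every group, summed to 43.3 to 63.5 CPM at midnight on day 0, 80.9 to 124 CPM on day 9 and 104 to 119 CPM on day 12. The vascular markers, also 6 of 6 above 0, summed to 572 to 730 CPM at midnight on day 0, 269 to 309 on day 9 and 315 to 316 on day 12. The dividing-cell sum was lower at midnight while the cytosolic sums were higher. It was 48.8 to 96.5 CPM on day 0, 24.5 to 27.8 on day 9 and 25.1 to 39.5 on day 12. On each of these drought days 7 of the 10 were lower and 2 higher. Of all loci tested, 25.4% and 29.8% were lower and 23.2% and 27.8% higher on days 9 and 12. The part of these lists in the midnight rise was not tested.

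**Figure D3:**
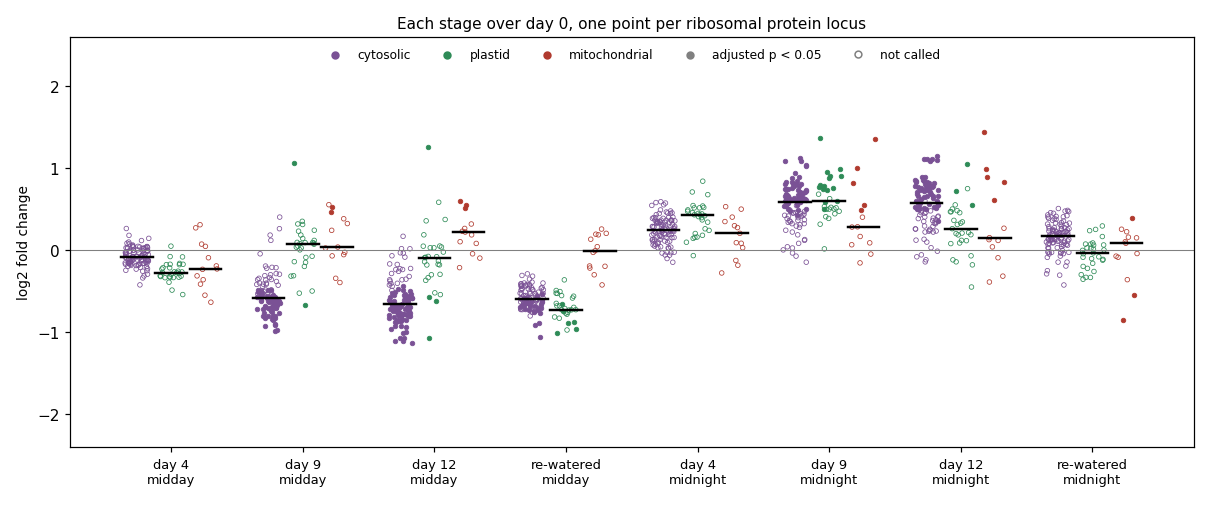
Log2 change of each member against day 0 at the same time of day, for days 4, 9 and 12 and for re-watering, by compartment, with 1 point per member, filled where the member was called, and a line at the median. Cytosolic medians are -0.58 and -0.66 at midday and 0.59 and 0.57 at midnight on days 9 and 12.

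Within each stage, midnight was compared with midday directly. On day 0, 95 cytosolic members were lower and 0 higher at midnight (median -0.83), against 21% and 22.9% of all loci tested. On day 4, 50 were lower and 0 higher (median -0.50), against 19.5% and 22.4%. On day 9 the balance had turned, with 18 higher and 1 lower (median 0.30), against 24% and 25.6%. On day 12, 27 were higher and 2 lower (median 0.35), against 27.2% and 27.5%, so the called share of these members at night was near that of all loci on both CAM days. After re-watering 1 was higher and 4 lower (median -0.07), against 23.6% and 23.5%.

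These day-night directions within a stage are relative to the other loci. Scaled by library totals, with no composition factor, the median of all loci tested moved at night by 0.74 on day 0, 0.52 on day 4, 0.29 on day 9 and 0.34 on day 12 on the log2 scale, and the cytosolic members moved with it. The split of all loci on day 0 then became 59.9% higher and 6.58% lower at night. On that scale the cytosolic median was -0.14 on day 0, with 10 members lower and 2 higher. It was -0.03 on day 4, with 0 lower and 1 higher. On day 9 it was 0.59 with 73 higher, and on day 12 it was 0.66 with 82 higher. The 73 and 82 include the upward shift of all loci, with medians moved by 0.29 and 0.34. The share of all loci called higher on this scale on days 9 and 12 is not given here. So the fall at night on days 0 and 4 was a fall against most other loci and nearly vanished in the share of all counts, whereas the night rise on days 9 and 12 was larger in that share. The counts that follow are from TMM scaling, with single libraries left out. On day 0 the count of members lower at night, 95 with all libraries, was 58 without midday replicate 1. On day 4 it was 15 and 30 without midday replicates 2 and 3, and 32, 27 and 26 without midnight replicates 1, 2 and 3. The count of members higher at night on day 9 was 9 and 8 without midday replicates 2 and 3 and 11 and 9 without midnight replicates 1 and 3, and on day 12 it was 8 without midday replicate 2 and 15 without midnight replicate 1.

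**Figure D4:**
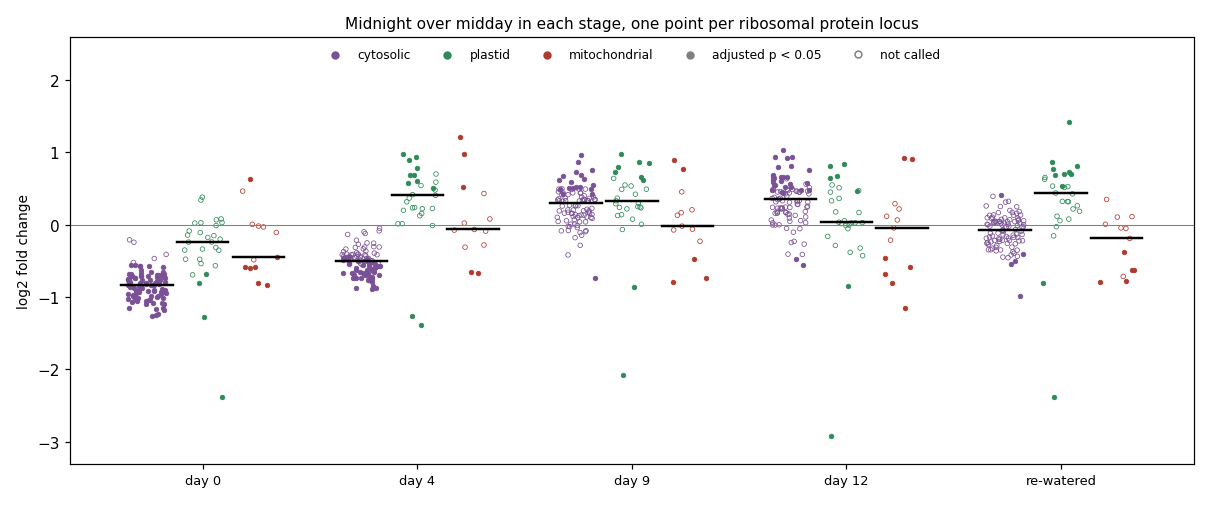
Log2 ratio of midnight to midday for each member in each of the 5 stages, by compartment, with 1 point per member, filled where the member was called, and a line at the median. The cytosolic median goes from -0.83 on day 0 and -0.50 on day 4 to 0.30 on day 9, 0.35 on day 12 and -0.07 after re-watering, while the plastid median is -0.24, 0.41, 0.33, 0.04 and 0.44.

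Ribosomal protein S15a-2 (AT2G19720), a small subunit member, had 17.98, 16.3 and 15.7 CPM at midday and 5.12, 8.68 and 7.5 CPM at midnight on day 0, and 8.84, 10.7 and 9.06 CPM and 6.99, 6.5 and 6.04 CPM on day 12. It was lower at midnight in all 5 stages, by 1.24 ± 0.18 (SE, adjusted p = 4.29e-06) on day 0 and by 0.56 ± 0.19 (SE, adjusted p = 0.0153) on day 12 on the log2 scale, although on library totals the values were -0.57 on day 0 (adjusted p = 0.00757) and -0.24 on day 12 (adjusted p = 0.288). The libraries of the day 0 groups did not overlap, and neither did those of day 12. In Arabidopsis the S15a family includes a divergent type that has been placed in mitochondria. The cytosolic class of AT2G19720 comes from its annotation and is therefore uncertain, so it may not be an exception within the cytosolic class. L3 (AT1G43170), a protein of the catalytic region of the large subunit, took the most reads of the cytosolic members, a mean of 521 CPM over the 30 libraries that is not corrected for length. Its level was 890.3, 426 and 574 CPM at midday and 318, 405 and 435 CPM at midnight on day 0, and 432, 392 and 465 CPM and 665, 699 and 675 CPM on day 12, which is the order of its class.

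Loci of 1 protein family can exchange reads, so the cytosolic loci with the same annotation were also summed to 68 families, in a setting added after the data were seen. Of these, 47 fell at midday on day 9 and 52 on day 12, 45 rose at midnight on day 9 and 45 on day 12, and 61 and 63 had a positive interaction. Taking the compartment from the Arabidopsis words alone left 63 cytosolic members. In that smaller class 40 and 46 fell at midday, 42 and 38 rose at midnight, and 53 and 54 had a positive interaction on days 9 and 12. Of all loci in the main fit, 21% and 25.7% were lower at midday and 23.2% and 27.8% higher at midnight. A positive interaction was called for 10% and 15.2% of them. No share over all loci was computed for the fit with summed families. The authors' deposited table of group means for assembled transcripts (contigs), in RPM, reads scaled to the size of the library, holds 163 contigs for the cytosolic members. Their summed RPM against day 0 had a log2 ratio of -0.55 at midday and 0.42 at midnight on day 9, and of -0.45 and 0.51 on day 12. This table comes from the same reads and gives means with no error.

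Few plastid members were called at midday. Their midday sum was 11996, 6681 and 8175 CPM on day 0, 8202, 8896 and 10247 CPM on day 9 and 8266, 8930 and 8571 CPM on day 12, and the groups overlapped. Of the 29 plastid members, 1 was called higher and 1 lower at midday on day 9 (median 0.07), and 1 higher and 3 lower on day 12 (median -0.09), where 23.4% and 29.3% of all loci were higher and 21% and 25.7% lower. At midnight the sum was 5537, 7621 and 9861 CPM on day 0 and 11005, 11532 and 11458 CPM on day 9, with no overlap. On day 9, 15 plastid members were higher at midnight and 0 lower (median 0.60). On day 12, 3 were higher and 0 lower (median 0.26). All loci were called higher at midnight in 23.2% of cases on day 9 and 27.8% on day 12, so the plastid count on day 12 was below the background. The day 9 count rested on few libraries: it was 1, 9 and 25 without day 0 midnight replicates 1, 2 and 3, 5 and 8 without day 9 midnight replicates 2 and 3, and 28 without both re-watered midday replicate 3 and day 0 midnight replicate 3, the 2 libraries with the lowest mean correlation to their own groups.

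The ratio of the summed plastid to the summed cytosolic level puts both classes on 1 scale, since any scaling of a library cancels in it. At midday it was 0.324 ± 0.011 (SD, n = 3) on day 0 and 0.285 ± 0.020 on day 4, then 0.494 ± 0.110 on day 9 and 0.474 ± 0.074 on day 12. The 3 libraries of each CAM day lay above the 6 of days 0 and 4. At midnight it was 0.488 ± 0.098 on day 0, 0.535 ± 0.029 on day 4, 0.489 ± 0.031 on day 9 and 0.368 ± 0.054 on day 12. After re-watering the ratio was 0.286 ± 0.048 at midday and 0.407 ± 0.019 at midnight. No p is given for these sums. The interaction that marked the cytosolic members was called for 3 plastid members on day 9 and 0 on day 12 by edgeR, with medians of 0.65 and 0.44 and with 10 and 3 members at an unadjusted p under 0.05. Of all loci, 10% and 15.2% had a positive interaction, so the plastid count was near the background on day 9 and below it on day 12. Whether the 2 compartments differed in it was not tested.

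PSRP1, the 30S ribosomal protein 1 of the chloroplast (AT5G24490), is known as a plastid homologue of bacterial hibernation factors that bind ribosomes when translation is low. At midday it had 244, 570.5 and 395 CPM on day 0, 415, 313 and 352 CPM on day 4, 788, 754 and 986 CPM on day 9 and 907, 1005 and 986 CPM on day 12. Midnight values were 50.02, 65.8 and 116 CPM on day 0, 221, 183 and 195 CPM on day 9 and 110.3, 161 and 111 CPM on day 12. The midday libraries of days 9 and 12 lay above all other libraries of this locus, and midnight lay below midday in each stage. PSRP1 rose at midday by 1.06 ± 0.29 (SE, adjusted p = 0.00449) on day 9 and by 1.26 ± 0.29 (SE, adjusted p = 0.000733) on day 12, and at midnight by 1.37 ± 0.30 (SE, adjusted p = 0.000475) on day 9. Midnight against midday it changed by -2.38 ± 0.31 (SE, adjusted p = 6.52e-07) on day 0 and -2.92 ± 0.31 (SE, adjusted p = 1.06e-08) on day 12, and the interaction was 0.30 ± 0.41 (SE, adjusted p = 0.639) on day 9 and -0.54 ± 0.41 (SE, adjusted p = 0.331) on day 12, both short of the threshold. On library totals the midnight to midday difference was -1.77 on day 0 and -2.62 on day 12.

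Some other named plastid proteins were higher at night. Midnight against midday, 9 of the 29 plastid members were called on day 9, 7 of them higher at midnight. On day 12, 7 were called, 5 of them higher. Of all loci tested, 24% and 27.2% were higher, so the plastid count was near the background on day 9 and below it on day 12. Plastid L13 (AT1G78630), a large subunit protein that binds early in bacteria, had 242, 251 and 287 CPM at midday and 500.2, 519.7 and 515 CPM at midnight on day 9, and 235, 257 and 249 CPM and 482, 453 and 396 CPM on day 12. Night lay above day in each library of both days. The change from day to night was 0.98 ± 0.22 (SE, adjusted p = 0.000496) on day 9 and 0.84 ± 0.22 (SE, adjusted p = 0.00171) on day 12. Against day 0 at midday, with 497, 268 and 338 CPM, it changed by -0.57 ± 0.22 (SE, adjusted p = 0.0268) on day 12, but the edgeR adjusted p was 0.270 without day 0 midday replicate 1. L9 (AT3G44890) had 279, 309 and 364 CPM at midday and 511, 588 and 634 CPM at midnight on day 9, a rise of 0.86 ± 0.27 (SE, adjusted p = 0.00981). L31 (AT1G75350) was 1 of the 3 plastid members with an interaction called on day 9, at 1.11 ± 0.37 (SE, adjusted p = 0.0285), and L13 was another, at 0.91 ± 0.30 (SE, adjusted p = 0.0303). On library totals these interactions were 0.71 (adjusted p = 0.0549) and 0.51 (adjusted p = 0.0847).

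L15 (AT3G25920), a protein of the plastid large subunit, fell at midday on day 12. It had 660.1, 325 and 399 CPM at midday on day 0, 352, 393 and 400.3 CPM on day 4, 295, 318 and 349 CPM on day 9 and 189, 242 and 225 CPM on day 12. The 3 libraries of day 12 lay below those of the other drought days and of day 0. The fall was 1.08 ± 0.29 (SE, adjusted p = 0.00249) on the log2 scale. The plastid-specific proteins PSRP6 (AT5G17870) and PSRP3 (AT5G15760), which bacterial ribosomes lack, rose at midnight on day 9 by 0.98 ± 0.31 (SE, adjusted p = 0.0108) and 0.96 ± 0.29 (SE, adjusted p = 0.00889). PSRP6 had 63.6, 73.6 and 113 CPM at midnight on day 0 and 153, 185 and 158 CPM on day 9, with no overlap.

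Mitochondrial members had low counts, with group means of their sum between 167 and 242 CPM. At midday 2 of the 13 rose on day 9 and 3 on day 12, and at midnight 5 rose on each of these days, with 0 falls in the 4 contrasts. Of all loci, 23.4% and 29.3% were higher at midday and 23.2% and 27.8% at midnight, so the midday counts were below the background. The medians were 0.04 and 0.22 at midday and 0.28 and 0.15 at midnight. S2 (AT3G03600) rose at midday by 0.52 ± 0.17 (SE, adjusted p = 0.0126) on day 9, a call lost in 3 alternatives.

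L47 of the mitochondrial large subunit (AT1G07830) had 13.5, 16.2 and 11.3 CPM at midnight on day 0, 20.7, 19.4 and 17.8 CPM on day 4, 37.5, 33.6 and 33.3 CPM on day 9, 41.2, 30.1 and 39.1 CPM on day 12 and 18.4, 12.8 and 12.1 CPM after re-watering. Midday values were 12.4, 15.7 and 12.6 CPM on day 0, 17.4, 20.1 and 18.4 CPM on day 9 and 19.7, 18.7 and 19.9 CPM on day 12. The 6 midnight libraries of days 9 and 12 were the 6 highest of the 30. L47 rose at midnight by 1.35 ± 0.17 (SE, adjusted p = 2.54e-07) on day 9 and by 1.43 ± 0.17 (SE, adjusted p = 5.25e-08) on day 12, and fell by 1.35 ± 0.17 (SE, adjusted p = 2.55e-07) between day 12 and re-watering. Its interaction was 0.89 ± 0.24 (SE, adjusted p = 0.00837) on day 9 and 0.92 ± 0.24 (SE, adjusted p = 0.00444) on day 12, and on library totals it was 0.51 (adjusted p = 0.147) and 0.56 (adjusted p = 0.0992). The midday rise on day 9, 0.46 ± 0.18 (SE, adjusted p = 0.0345), was lost in 8 alternatives.

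L37 (AT3G01740) had 17.4, 18.1 and 19.4 CPM at midnight on day 0, 32.3, 34.5 and 29.9 CPM on day 9 and 37.9, 27.9 and 31.7 CPM on day 12, with days 9 and 12 above day 0 in each library. It rose by 0.82 ± 0.14 (SE, adjusted p = 3.23e-05) on day 9. The member annotated as L51/S25/CI-B8 (AT3G59650) rose at midnight by 0.55 ± 0.13 (SE, adjusted p = 0.00145) on day 9 and 0.90 ± 0.13 (SE, adjusted p = 2.44e-06) on day 12. Midnight against midday on day 12, 7 of the 13 mitochondrial members were called, 5 of them lower at midnight. Of all loci tested, 27.5% were lower and 27.2% higher in that contrast. In the small subunit 4 of 5 members were lower and 0 higher. Among the lower members was S10 of the mitochondrial small subunit (AT3G22300). It had 14.1, 15.7 and 16.4 CPM at midday and 6.47, 6.02 and 8.15 CPM at midnight on day 12, against 12.1, 13.4 and 11.5 CPM and 9.91, 9.96 and 7.38 CPM on day 0. Midnight against midday S10 changed by -0.44 ± 0.17 (SE, adjusted p = 0.0313) on day 0 and -1.15 ± 0.17 (SE, adjusted p = 1.37e-06) on day 12, and the interaction on day 12 was -0.71 ± 0.23 (SE, adjusted p = 0.0205). On library totals the day 0 difference turned to 0.23 (adjusted p = 0.304), while that of day 12 was -0.83 and the interaction -1.06. S29 (AT1G16870), also of the small subunit, was lower at midnight in each of the 5 stages, by 0.81 ± 0.13 (SE, adjusted p = 2.34e-05) on day 0 and by 0.46 ± 0.13 (SE, adjusted p = 0.00426) on day 12. On library totals S29 was not called in any of the 5 stages, with values of -0.13 on day 0 (adjusted p = 0.495) and -0.14 on day 12 (adjusted p = 0.483).

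Re-watering was compared with day 12 and with day 0. Against day 12 at midnight, 27 cytosolic members fell and 0 rose (median -0.40), against 20.6% and 22.3% of all loci tested, so the falling share was near the background. The groups did not overlap for 27 of the 27, nor for 96.1% of all loci called lower. S21e had 208, 173 and 182 CPM on day 12 and 106, 88.5 and 100.5 CPM after re-watering at midnight, with no overlap, and fell by 0.93 ± 0.22 (SE, adjusted p = 0.00134). L39 at AT3G02190 and L41 at AT3G56020, among the smallest proteins of the large subunit, fell by 0.90 ± 0.27 (SE, adjusted p = 0.00809) and 0.83 ± 0.25 (SE, adjusted p = 0.00975). The count was 14 and 16 without day 12 midnight replicates 1 and 3, and 10 and 8 without re-watered midnight replicates 2 and 3.

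Against day 0 at midnight, no cytosolic member was called after re-watering (0 higher, 0 lower by edgeR, 5 at an unadjusted p under 0.05), while 8.28% of all loci were higher and 11.3% lower. DESeq2 called 0 higher, and leaving out 6 libraries in turn gave 0 to 1. The cytosolic sum at midnight was 20215, 16651 and 16728 CPM after re-watering and 12426, 18210 and 16423 CPM on day 0, which overlap.

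At midday re-watering was compared with day 12 in the same way. Of the 29 plastid members, 12 fell and 0 rose against day 12 (median -0.58), whereas 2 cytosolic members fell and 1 rose (median 0.05), with 24.8% of all loci lower and 22.9% higher. PSRP1 had 907, 1005 and 986 CPM at midday on day 12 and 491, 253 and 197 CPM after re-watering, with no overlap, and fell by 1.62 ± 0.30 (SE, adjusted p = 6.25e-05). L27 (AT5G40950), a large subunit protein next to the peptide-bond site in bacteria, had 629, 588 and 597 CPM on day 12 and 409, 281 and 183 CPM after re-watering, also with no overlap, and fell by 1.05 ± 0.22 (SE, adjusted p = 0.00022). The count of falling plastid members was 6 without day 12 midday replicate 2, and 23, 6 and 4 without re-watered midday replicates 1, 2 and 3. In the cytosolic class P0 (AT2G40010), the base of the ribosomal stalk, fell by 0.81 ± 0.23 (SE, adjusted p = 0.00585), and L40 (AT2G36170), made as a fusion with ubiquitin, rose by 0.51 ± 0.17 (SE, adjusted p = 0.0178). The count of falling cytosolic members was 6 without re-watered midday replicate 1 and 0 without replicate 3.

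The midday libraries after re-watering were spread widely. Cytosolic sums were 23935, 19118 and 12894 CPM in replicates 1, 2 and 3, and plastid sums were 7999, 5457 and 3066 CPM. The dividing-cell markers summed to 247, 175 and 51.3 CPM in the same order, so replicate 3 was lowest in all 3 measures. It also stood apart in mesophyll markers, at 55492 CPM beside 152429 and 121837 in replicates 1 and 2, and in vascular markers, at 1237 CPM beside 583 and 719. The part of these markers in the midday falls was not tested. Against day 0 at midday 24 cytosolic and 6 plastid members were lower after re-watering, with 2.75% of all loci lower and 4.09% higher. The cytosolic count was 0, 89 and 4 without day 0 midday replicates 1, 2 and 3, and 86, 2 and 0 without re-watered midday replicates 1, 2 and 3. The plastid count in the same order was 0, 20 and 1, and 27, 0 and 0. The interaction for re-watering was called for 11 cytosolic members, and was negative for 0, against 1.98% and 4.28% of all loci tested. That count ran from 0 without day 0 midday replicate 1 to 74 without day 0 midday replicate 2, and it was 69 without re-watered midday replicate 1 and 0 without replicate 3.

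The remaining members were followed in the same contrasts. Of the 66 members of untold compartment, 17 fell and 3 rose at midday on day 9, and 30 rose and 1 fell at midnight, beside 21% of all loci lower and 23.4% higher at midday and 23.2% higher and 25.4% lower at midnight. Their median interaction was 0.88 on day 9, with 34 called positive and 4 negative, beside 10% and 14.2% of all loci. Among the 23 bacterial-type members, 4 rose and 0 fell at midday and 10 rose and 1 fell at midnight on day 9, the midday count being below that share of all loci. The 17 members named as another or an uncharacterized protein hold several factors that are not ribosomal proteins. Of these, elongation factor 2 (AT1G56070), which moves the ribosome along the message, rose at midnight by 0.82 ± 0.19 (SE, adjusted p = 0.00105) on day 9. NHP2 (AT5G08180), a protein of the H/ACA particles that modify ribosomal RNA, rose at midnight by 1.64 ± 0.26 (SE, adjusted p = 6.13e-06) on day 12, and the ClpS protease adapter (AT1G68660) was lower at midnight than at midday by 2.74 ± 0.24 (SE, adjusted p = 1.97e-10) on day 12. These 3 were chosen after their values were seen.

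Other genes of the translation system were taken from lists of known Arabidopsis genes. Of 32 loci for ribosome biogenesis, 9 rose and 0 fell at midday on day 9 (median 0.21), and 27 rose and 0 fell at midnight (median 0.72). All loci were called higher in 23.4% of cases at midday and 23.2% at midnight, so the midday count was near the background. On day 12, 11 rose at midday and 29 at midnight, beside 29.3% and 27.8% of all loci. PES (AT5G14520), which is needed for the large subunit RNA to mature, had 170.1 ± 4.64 CPM at midnight on day 9 and 69.8 ± 2.84 CPM (SD, n = 3) on day 0, a rise of 1.29 ± 0.13 (adjusted p = 5.89e-09). NRPA2 (AT1G29940), a subunit of the polymerase that makes ribosomal RNA, rose by 2.01 ± 0.29 (adjusted p = 1.71e-06) at midnight on day 12. After re-watering 18 of the 32 fell at midday and 24 at midnight against day 12, beside 24.8% and 20.6% of all loci.

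Of 26 initiation factor loci, 0 rose and 6 fell at midday on day 9, and 17 rose and 0 fell at midnight. For these lists the shares of all loci on day 9 were 23.4% higher and 21% lower at midday and 23.2% higher and 25.4% lower at midnight, so the midday fall of initiation factors was near the background. The elongation factor list has 9 loci, of which 4 are also among the members named as another kind of protein. In it 3 fell at midday and 6 rose at midnight on day 9. Of 21 loci for plastid translation and RNA maturation, 10 rose and 1 fell at midday on day 9. At midnight 14 rose and 0 fell. The summed level of these loci did not rise at midday, with 11932 ± 3025 CPM (SD, n = 3) on day 0 and 8682 ± 1485 on day 9. At midnight it was 7289 ± 1978 and 9841 ± 1006 CPM, and the groups overlapped at both times. Of 5 mitochondrial translation factors 4 rose at midday and 5 at midnight, and elongation factor G of mitochondria (AT2G45030) rose at midnight by 1.43 ± 0.14 (adjusted p = 2.9e-09). Both RACK1 loci, which encode a scaffold on the small subunit, fell at midday on day 9. Of 5 loci of the TOR kinase pathway 4 rose and 1 fell at midday, and of 2 RNA polymerase I loci 2 rose at midnight on day 9.

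**Figure D5:**
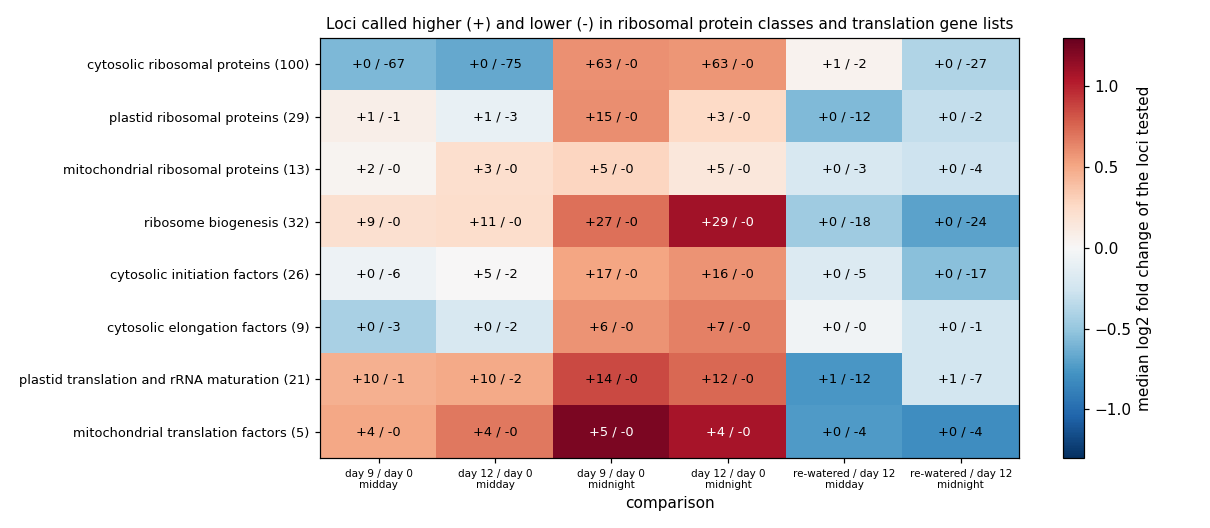
Median log2 change of each list of translation genes and of the cytosolic, plastid and mitochondrial members in 6 comparisons between stages, as a colour scale, with the number of loci called higher after a plus sign and lower after a minus sign. At midday on day 9 the cytosolic members show 0 higher and 67 lower, while ribosome biogenesis shows 9 higher and 0 lower.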

How the data were processed

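Per the labels, polyadenylated RNA of mature leaves was sequenced as single-end reads of 150 bp on an Illumina HiSeq, 12 libraries to a lane, and which lane held which library is not given. Per the file headers, the authors aligned reads with BLAT in protein space to a reduced set of TAIR10 Arabidopsis proteins and deposited, for each library, the count of reads with their best match at each locus, so the unit is a raw count per Arabidopsis locus. A second table deposited by the authors gives the mean RPM per group for each assembled contig, with the best Arabidopsis and sugar beet match; its mapping tool is not given in the sources used here, and those means have no error. The submitters' processing notes name CASAVA 1.8.2 and DESeq2. Another 6 libraries, read from both ends, are not analysed here.

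Differences in the counts were tested in R 4.3.3 with edgeR 4.0.16 (TMM scaling, filterByExpr, robust quasi-likelihood F test, 1 coefficient per group over 30 libraries, 20 residual degrees of freedom). p-values were two-sided and adjusted by Benjamini-Hochberg over 14052 loci within each of 22 contrasts, with 0.05 as the threshold; 4 of the contrasts, against day 4, were added after the data were seen. SE is the log2 change divided by the square root of F. The biological coefficient of variation was 0.173. Depth of 4266915 to 8756533 counts makes 3 counts, the smallest amount treated as detected, a level of under 1 CPM, and this covers counting error only. A comparison of 3 libraries with 3 by exact permutation cannot go below p = 0.1, so single sums carry no p.

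The members and lists were chosen with earlier results of these data known. Loci named in the text were, in each compartment, the 4 of highest mean and those with the largest called changes. The latter were the 3 largest rises and falls per stage contrast and the 2 largest per day-night or interaction contrast. Those with the largest changes had a group mean of at least 10 CPM and, except for interactions, groups that did not overlap. Added to them were the loci next to the threshold, called members that went against their class and up to 4 loci per list. Lists were ribosome biogenesis, RNA polymerase I, TOR and S6 kinase signalling, initiation and elongation factors, RACK1, plastid and mitochondrial translation, and markers of mesophyll, guard cells, vasculature and dividing cells. The alternatives were other scalings, filters, DESeq2 1.42.0, a fit of only the groups compared, a replicate block and each library left out. Labels give replicates as biological but do not say whether a number marks the same plant or day across groups. The mean correlation of same-numbered libraries' deviations was 0.00244, and 20 of 135 pairs were above 0.1. For libraries of other numbers it was -0.00125, with 33 of 270 pairs above 0.1. So no pairing by number showed on average, but this mean cannot tell whether some groups were paired. The procedure was also run on simulated counts with few changed loci, balanced up and down, and the same variation for all loci. Far more loci were called in these data, so that run does not test the scaling here.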

Additional observations from a re-analysis of the deposited data

Results flagged for a closer look

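The response to drought differed between midday and midnight, by a test of the interaction in edgeR, for 86 cytosolic, 3 plastid and 4 mitochondrial members on day 9 and for 90 cytosolic and 4 mitochondrial members on day 12, at an adjusted p under 0.05. The classes hold 100, 29 and 13 members, and 10% of all loci had a positive and 14.2% a negative interaction on day 9, and 15.2% and 18.6% on day 12. The plastid count was near the positive share on day 9, and the mitochondrial counts come from 13 members. After re-watering the same test called 11 cytosolic members, beside 1.98% of all loci positive and 4.28% negative, and that count moved with single libraries as given above. The 3 plastid members on day 9 include L31 and L13, and the 4 mitochondrial members on day 12 include L47 and L37, with positive values, and S10, with a negative one.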

How the results depend on the processing

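With a replicate block in the fit, the cytosolic members with a positive interaction numbered 86 on day 9 and 92 on day 12, and the block moved no other count of a class by over 1.5 times. The shares of all loci called under the alternative settings are not given in this section. Cytosolic counts at midday on day 9 were 30 on library totals and 38 with only the groups compared. On day 12 they were 46 on library totals. Re-watering against day 0 at midday gave 38 with upper quartile scaling, 14 with no filter, 7 on library totals, 52 by DESeq2, 0 with only the groups compared and 1 without both low-correlation libraries. Without these, day 4 and re-watering at midnight gave 1 each and plastid members on day 9 gave 28. Re-watering against day 12 at midday gave 4, 1 and 1 cytosolic members on library totals, with only the groups compared and without both libraries, and 21, 3, 4 and, with upper quartile scaling, 7 plastid members; at midnight it gave 56 with only the groups compared. Night against day gave 10 and 52 on day 0, 0 and 87 on day 4, 73 and 48 on day 9, 82 and 54 on day 12 and 1 and 1 after re-watering on library totals and with only the groups compared, and 18 after re-watering without both libraries. The interaction for re-watering gave 18, 7, 5, 23, 0 and 1 under upper quartile scaling, no filter, library totals, DESeq2, only the groups compared and without both libraries. Against day 4, midday on day 9 gave 70 with upper quartile scaling and 80 with only the groups compared, and midnight gave 54 on day 9 and 44 on day 12 with only the groups compared. The log2 ratio of the summed cytosolic level between midnight and midday was -0.11 on day 0 and 0.60 on day 9 on library totals, in place of -0.79 and 0.31. On library totals the log2 fold change of AT3G59650, midnight against midday on day 0, became 0.084 and the summed mitochondrial ratio became 0.37. Leaving out 1 library gave 0 to 0 (day 4 midday and midnight), 8 to 85 and 22 to 84 (days 9 and 12 at midday), 0 to 89 (re-watering at midday), 20 to 60 and 26 to 74 (days 9 and 12 at midnight), 1 to 25 (plastid, day 9 midnight), 0 to 1 (re-watering at midnight), 0 to 6, 4 to 23 (plastid) and 8 to 31 (re-watering against day 12), 58 to 100, 15 to 54, 8 to 15, 8 to 28 and 1 to 18 (night against day in the 5 stages), 68 to 95, 73 to 95 and 0 to 74 (interactions), and 10 to 48, 30 to 60, 8 to 19 and 16 to 23 (against day 4). Fits of only the groups compared rest on fewer residual degrees of freedom; the cause of the other shifts was not tested. Of 112 results for 40 named loci, 62 kept their call in the alternatives run and 50 lost it in at least 1. Mitochondrial members had the lowest summed level, and whether depth limited them more was not tested.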
